A study of Mus musculus with 24 samples.

Results

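Striatal gene expression in mice that had drunk morphine over a long period and then received a morphine injection was compared with that in mice never given morphine. Both groups were picked by the drink and injection named in the sample titles and labels, with no use of measured values, and they hold 12 of the 24 arrays of the series, 6 in each group. All animals were C57BL/6J mice aged 6 to 10 weeks, killed 4 h after their last injection. The group given both drank morphine and was injected intraperitoneally with morphine at 20 mg/kg. The drug-naive group drank saccharin, a sweetener, and was injected with saline at 10 ml/kg, so every animal shared a long-term drink in place of plain water and a last injection. The remaining 12 arrays came from saccharin drinkers injected with morphine (injection only) and morphine drinkers injected with saline (drink only), 6 each. Because the 2 groups compared differ in both drink and injection, this contrast alone cannot tell the effect of one from that of the other. The sources used here give neither the morphine intake of each animal nor the hours between the last drink and the injection. Each array was taken as 1 animal, since the titles carry different animal numbers, and p-values measure the spread between these arrays.

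Morphine is an agonist of the mu opioid receptor, a Gi-coupled receptor that lowers cAMP in the cell. The striatum is a forebrain region of motor and reward control whose neurons are mostly medium spiny neurons, expressing either the D1 or the D2 dopamine receptor. In rodents an injection of morphine also releases corticosterone, the main rodent glucocorticoid. That steroid enters the brain, binds the glucocorticoid receptor and induces target genes in glia, blood vessel cells and neurons. Over repeated exposure, several responses to opioids become smaller, which is called tolerance.

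RNA was measured on Illumina mouse beadchips, on which each probe's brightness reports 1 transcript sequence. Median raw intensity ran from 164 to 543 over the 24 arrays, and any pair of normalized arrays correlated at 0.935 to 0.993 (Pearson's r across 13742 genes, which are not independent replicates). The arrays lay on 6 chips with 4 arrays each, 1 from each group, and chip was a term in the fit. Markers of the labelled tissue were bright in the drug-naive mice, where Drd1 lay between 12.85 and 14.06 and Drd2 between 10.82 and 11.88 (log2 intensity). Markers of cortical excitatory neurons varied more on these arrays. Slc17a7 ran from 8.58 through a median of 12.63 to 13.42 and Neurod2 from 8.02 through 10.74 to 11.50, both lowest on drug-naive replicate 5. The share of cortical tissue in the samples was not tested. One array of the group given both, replicate 31, stood apart. Its Drd1 level was 9.88 and its Drd2 level 7.13, and its mean over 27 medium spiny neuron markers was 9.60, against 12.11 to 12.69 on the other 5 arrays of its group. The drink-only array of replicate 32, on the same chip, was also low, at 9.78. The count of called genes is therefore given with and without replicate 31, and so is each list median printed here where leaving it out turned the sign or moved it by over 1.5 times.

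The genes that rose are all on a list of genes induced by glucocorticoid hormones. That list was compiled with earlier results of these data known, so this overlap is no independent evidence. At an adjusted p under 0.05 by limma, 6 of 13742 genes rose (0.0437%) and 0 fell (0%), with 334 genes higher and 303 lower at an unadjusted p under 0.05, where 687.1 in all would be expected by chance. The genes were Plin4, Sult1a1, Tsc22d3, Mfsd2a, Fkbp5 and Mertk. In each of them all 6 arrays of the mice given both lay above all 6 drug-naive arrays. Without replicate 31 the count was again 6 (0.0437%), of which 5 were shared. Mertk was then just outside, with an adjusted p of 0.0580 by limma, and Xdh entered at 0.0441. In a fit to the 12 arrays alone, with no other group to share the estimate of spread, only Plin4 passed. In bulk tissue, fewer cells of a type and less RNA per cell cannot be told apart, and this holds for every value below.

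**Figure D1:**
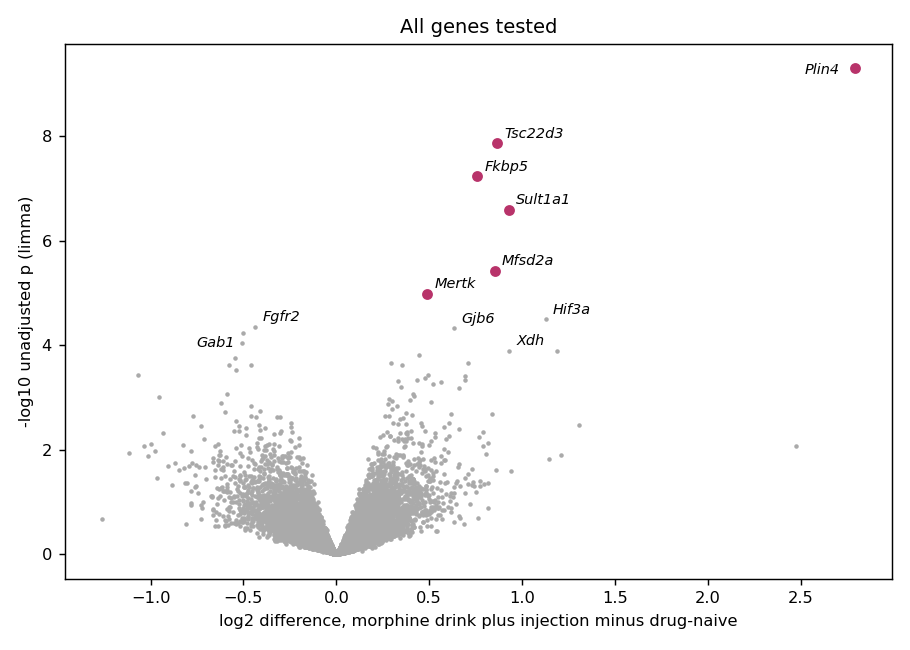
Each point is 1 of 13742 genes, placed by its log2 difference between the mice given both and the drug-naive mice (horizontal axis) and by minus log10 of its unadjusted limma p (vertical axis). Coloured points are the 6 genes past an adjusted p of 0.05, all to the right of 0, and Plin4 lies farthest out at 2.79.

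Glucocorticoid receptor targets share a DNA motif, so windows around annotated start sites were searched for it. Windows of Plin4, Sult1a1, Tsc22d3 and Sgk1 are printed, of which Sgk1 did not rise. The receptor binds as a dimer to a palindrome, GNACANNNTGTNC, of which TGTTCT is the common half-site. Windows of 300 bases, from 250 before to 50 after each start, came from RefSeq on build GRCm38.p6 and were searched on both strands. They are printed 5′ to 3′ on the gene's strand, with the half-site or its reverse complement, and the full palindrome, in capitals. All 6 genes that rose had at least 1 window.

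Plin4, chr17:56109733-56110032, minus strand: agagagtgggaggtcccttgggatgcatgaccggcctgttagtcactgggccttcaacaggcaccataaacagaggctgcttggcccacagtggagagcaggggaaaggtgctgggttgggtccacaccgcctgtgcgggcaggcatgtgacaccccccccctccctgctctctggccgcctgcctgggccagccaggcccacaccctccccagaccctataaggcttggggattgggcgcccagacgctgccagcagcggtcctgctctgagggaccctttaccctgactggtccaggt
Sult1a1, chr7:126676369-126676668, minus strand: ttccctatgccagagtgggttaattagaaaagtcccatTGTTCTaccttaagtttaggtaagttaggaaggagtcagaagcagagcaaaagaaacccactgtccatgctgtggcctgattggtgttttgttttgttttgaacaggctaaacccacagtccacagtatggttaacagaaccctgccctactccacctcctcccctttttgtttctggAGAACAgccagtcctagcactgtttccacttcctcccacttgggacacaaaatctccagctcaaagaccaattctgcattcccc
Tsc22d3, chrX:140600473-140600772, minus strand: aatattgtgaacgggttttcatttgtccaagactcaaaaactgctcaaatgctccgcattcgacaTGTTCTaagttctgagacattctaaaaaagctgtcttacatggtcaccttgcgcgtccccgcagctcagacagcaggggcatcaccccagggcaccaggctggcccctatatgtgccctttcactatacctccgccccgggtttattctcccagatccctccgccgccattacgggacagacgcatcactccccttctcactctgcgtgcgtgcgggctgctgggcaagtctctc
Sgk1, chr10:21993640-21993939, plus strand: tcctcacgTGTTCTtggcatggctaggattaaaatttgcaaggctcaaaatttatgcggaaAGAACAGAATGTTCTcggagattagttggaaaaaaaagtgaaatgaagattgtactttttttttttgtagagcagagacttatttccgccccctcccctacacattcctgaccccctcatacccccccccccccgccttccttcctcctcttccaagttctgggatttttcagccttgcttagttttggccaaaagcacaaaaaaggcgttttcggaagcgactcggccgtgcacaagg

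The Plin4 window held no half-site, the Sult1a1 window 2, and the Tsc22d3 window shown, 1 of 3 for that gene, held 1. The windows of Mfsd2a, Fkbp5 and Mertk held none. The half-site occurs in 19.0% of 32851 windows and in at least 1 window of 21.3% of 27025 genes, and 2 of the 6 genes held it. The full palindrome occurs in 0.475% of windows. It was in none of the windows of the 6 genes. Sgk1, which did not rise, held it in 1 of 6 windows, and only that window, with 3 half-sites, is printed. The windows of Hif3a, Gjb6 and Fgfr2, which did not pass, were also searched and held neither motif. Half-sites inside the palindrome are counted in both. A match in these letters is a description and no measured binding site.

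Plin4, which encodes a perilipin that coats lipid droplets, showed the largest difference of all genes tested. Its log2 intensity in the drug-naive mice was 7.77 at the lowest, 8.57 at the median and 8.87 at the highest, and in the mice given both it was 10.88, 11.10 and 11.79. The lowest array with both stood far above the highest drug-naive array. The means were 8.41 ± 0.445 and 11.20 ± 0.334 (SD, n = 6 each), a 6.92-fold rise (log2 difference 2.79, SE 0.230, adjusted p = 7.03e-06 by limma). On single chips the difference ran from 2.45 on chip 3 to 3.24 on chip 2, the chip of replicate 31. Without that replicate it was 2.80.

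Tsc22d3 encodes GILZ, the glucocorticoid-induced leucine zipper, which restrains inflammatory transcription factors. The drug-naive arrays ran from 12.20 through a median of 12.47 to 12.91, and the arrays of mice given both from 13.05 through 13.42 to 13.55. No array of one group reached the other. The 1.82-fold rise (log2 difference 0.87, SE 0.0883) had an adjusted p of 9.56e-05 by limma. Its other probes above the filter moved the same way, by 1.14 and 0.44. Fkbp5, a co-chaperone that lowers the hormone affinity of the glucocorticoid receptor, ran from 9.67 through 9.96 to 10.31 in the drug-naive mice and from 10.44 through 10.66 to 11.06 in those given both. The gap between the groups was narrow, and the highest array was replicate 31. The rise was 1.69-fold (log2 difference 0.76, SE 0.0852, adjusted p = 2.69e-04 by limma). Without that replicate the log2 differences were 0.86 for Tsc22d3 and 0.75 for Fkbp5.

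Sult1a1 encodes a sulfotransferase of phenols and catechols. Its drug-naive arrays ran from 9.89 through 10.50 to 10.72, and the arrays of mice given both from 11.09 through 11.36 to 11.58. All 6 chips showed the rise, with the smallest difference, 0.41, on chip 2 and the largest, 1.52, on chip 6. It was 1.90-fold (log2 difference 0.93, SE 0.116, adjusted p = 8.86e-04 by limma). Mfsd2a, which carries lysophosphatidylcholine lipids across the endothelium of the blood-brain barrier, ran from 10.65 through 10.89 to 11.28 and from 11.44 through 11.80 to 11.98. The lowest array of the mice given both was still above the highest drug-naive array. The rise was 1.81-fold (log2 difference 0.85, SE 0.129, adjusted p = 0.0104 by limma). Mfsd2a no longer passed when drug-naive replicate 3 or 8, or replicate 40 of the mice given both, was left out, with a highest adjusted p of 0.0593.

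Mertk encodes a receptor tyrosine kinase with which astrocytes and microglia take up cell debris and synapses. Its drug-naive arrays were tightly grouped, from 10.53 through 10.61 to 10.66, while those of mice given both spread from 10.86 through 11.07 to 11.40. The lowest of the latter stood above every drug-naive array. The rise was 1.40-fold (log2 difference 0.49, SE 0.0805, adjusted p = 0.0238 by limma). It was the least stable of the 6 calls when single arrays were left out: it was lost in 7 of 12 fits, without replicates 31, 35, 39 or 40 of the mice given both or without drug-naive replicates 3, 5 or 8, and the highest adjusted p was 0.120. Plin4, Sult1a1, Tsc22d3 and Fkbp5 passed in all 12 of these fits.

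**Figure D2:**
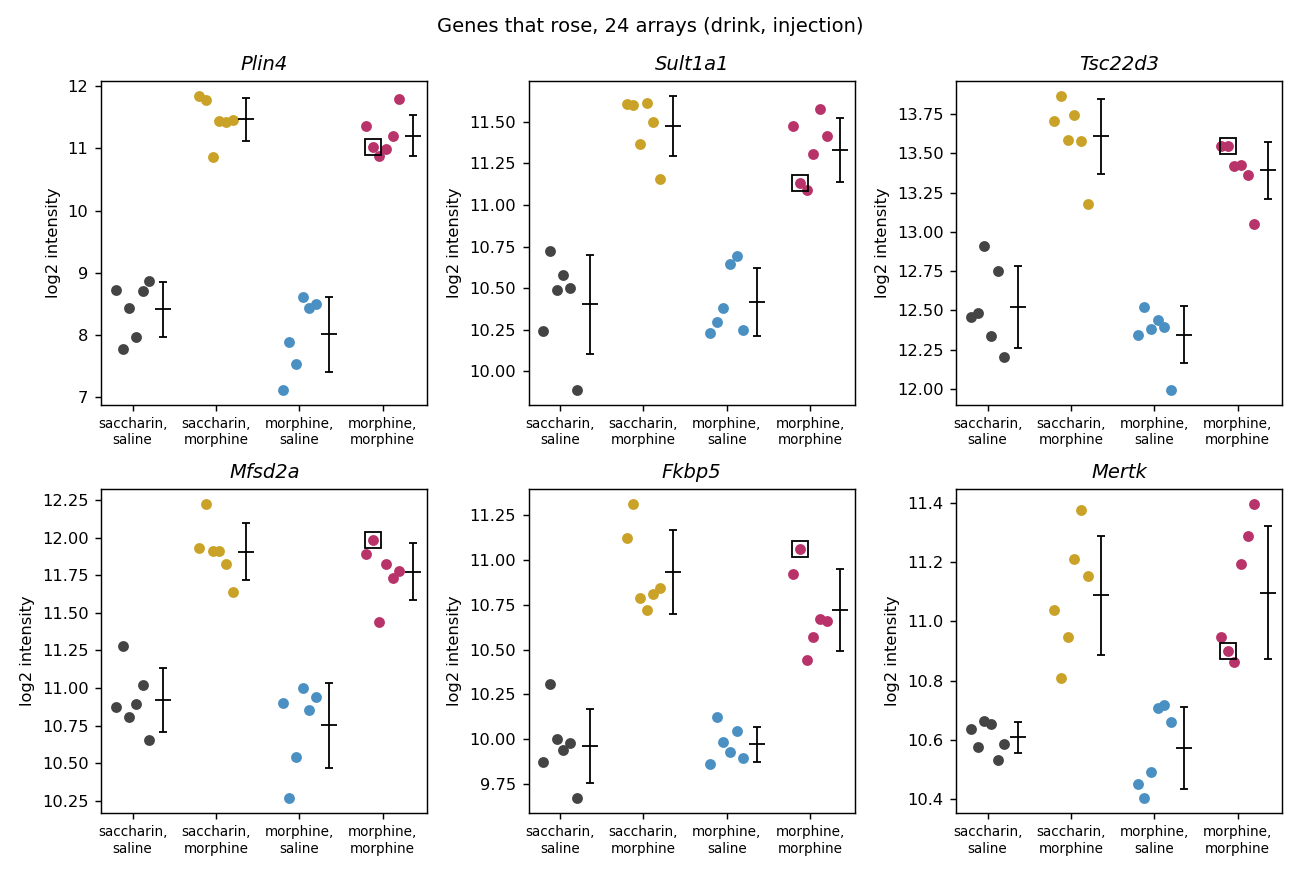
Normalized log2 intensity (vertical axis) of the 6 genes that rose, with 1 point per array in each of the 4 groups, named by drink and injection and ordered within a group by chip. Horizontal bars with whiskers are mean and SD (n = 6), and an open square marks replicate 31. In every panel the morphine, morphine arrays lie above the saccharin, saline arrays, and the drink-only arrays lie near the latter.

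The same 6 drug-naive arrays also served the comparisons with the other groups, so those values are only set side by side. The injection-only means were 11.46 for Plin4, 11.47 for Sult1a1, 13.61 for Tsc22d3, 11.91 for Mfsd2a, 10.93 for Fkbp5 and 11.09 for Mertk. The drink-only means were 8.02, 10.42, 12.34, 10.75, 9.97 and 10.57 in the same order. In all 6 genes the mice given both were thus near the injection-only level. The difference between these groups, in which the drug-naive arrays cancel, was -0.26 for Plin4, -0.14 for Sult1a1, -0.22 for Tsc22d3, -0.13 for Mfsd2a, -0.21 for Fkbp5 and 0.01 for Mertk. Over all 13742 genes, 0 passed in that comparison by limma, with 761 at an unadjusted p under 0.05, so no gene was shown to differ with drinking history among injected mice. Injection only against drug-naive had 41 rises (0.298%) and 10 falls, with 1058 genes at an unadjusted p under 0.05. Drink only against drug-naive had 0 genes in either direction, with 628 at an unadjusted p under 0.05.

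The wider list of glucocorticoid-induced genes was shifted upward. Of 47 genes listed, 43 were tested, 6 rose, 0 fell, and 38 had a log2 difference above 0. Of all 13742 genes, 7062 were above 0 and 6680 below, and the list counts that follow are to be read beside these. The median of the glucocorticoid list was 0.29, against 0.0045 over all genes, and 0.31 without replicate 31. The list was compiled with earlier results of these data known, so these counts describe it and are no independent evidence. At an unadjusted p under 0.05, 21 members were higher and 1 lower, where 334 of all 13742 genes were higher and 303 lower. In 10 members all arrays of the mice given both lay above all drug-naive arrays, where 20 of all genes did so (0.146%), and 13 members (30.2%) were higher on 6 of 6 chips, against 1.78% of all genes. The mean level over the members was 10.38 to 10.52 on the drug-naive arrays, 10.64 to 11.03 with both, 10.95 to 11.23 with injection only and 10.23 to 10.52 with drink only. The groups given both and drug-naive did not overlap in this mean, and within chips it was higher by 0.39 ± 0.17 (SD over 6 chips). The blood cell markers, which could carry RNA from outside the tissue, had a median of -0.08 over 7 genes, which was 0.030 without replicate 31 and ran from -0.0089 to 0.030 under the other scalings. Their part in the shift was not tested.

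Among members that missed the threshold, Hif3a, which encodes a subunit of the hypoxia-inducible factors, was nearest. It ran from 7.56 through a median of 8.41 to 8.86 in the drug-naive mice and from 9.11 through 9.51 to 9.72 in those given both. The groups did not overlap, and the log2 difference was 1.13 (SE 0.204, adjusted p = 0.0632 by limma). Its dimmer probes gave -0.01 and 0.41. Xdh, which encodes xanthine oxidoreductase, an enzyme of purine breakdown, ran from 8.10 through 8.25 to 8.45 and from 8.48 through 9.29 to 9.70. Its lowest array among mice given both was replicate 31, barely above the drug-naive range. The log2 difference of Xdh was 0.93 (SE 0.191, adjusted p = 0.137 by limma), and 1.08 without replicate 31.

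Gjb6, the astrocyte gap junction gene for connexin 30, ran from 12.33 through 12.57 to 12.97 and from 12.98 through 13.13 to 13.71. The groups touched without overlap, and the log2 difference was 0.63 (SE 0.119, adjusted p = 0.0732 by limma). Klf9, a Krüppel-like transcription factor gene, differed by 0.29 with no overlap (adjusted p = 0.165 by limma). The metallothionein gene Mt2 differed by 0.66, and the zinc finger transcription factor gene Zbtb16 by 0.58. Neither passed, and each was higher on 5 of 6 chips.

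Several other targets of the hormone did not pass, and on the probe used all those named here but Dusp1 lay nearer the drug-naive than the injection-only mean. Sgk1, a kinase that regulates ion channels and transporters, ran from 13.32 through 13.68 to 14.20 in the drug-naive mice and from 13.38 through 13.85 to 14.77 in those given both. The groups overlapped widely and only 3 of 6 chips showed the higher value with both. Its log2 difference was 0.29 (SE 0.194, 95% interval -0.12 to 0.69, adjusted p = 0.995 by limma), while the 6 injection-only arrays ran from 14.69 to 15.14, a log2 difference of 1.18 from the same controls. Angptl4, which encodes a secreted inhibitor of lipoprotein lipase, differed by 0.30 with both and by 1.06 with injection only. The cell cycle inhibitor gene Cdkn1a differed by 0.49 and 1.23 on the probe used, but its other probes above the filter gave larger differences with both, 0.68 and 1.03. The NF-kappa-B inhibitor gene Nfkbia differed by 0.17 and 0.99, and Depp1, a target of FOXO factors, by 0.02 and 0.84. The clock gene Per1 (-0.03) and the phosphatase gene Dusp1 (-0.31) were not higher with both. Dusp1 was at -0.20 with injection only, and so lay nearer that mean.

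Set against injection only, 37 of 43 members (86.0%) were lower with both, where 6593 of all 13742 genes were. The median of the members was -0.18, against 0.0075 over all genes. The smallest p-values of that comparison over all genes belonged to Depp1 (-0.82), Sgk1 (-0.90), Angptl4 (-0.76), Nkx2-2, an oligodendrocyte lineage transcription factor gene (0.52), and Clcn1, a chloride channel gene (-0.34), all with an adjusted p of 0.869 by limma. A smaller response with drinking history was therefore not established for any single gene. Nor is the count of 37 independent evidence of one. The list was compiled with earlier results of these data known, and 18 of its members rose with injection only.

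**Figure D3:**
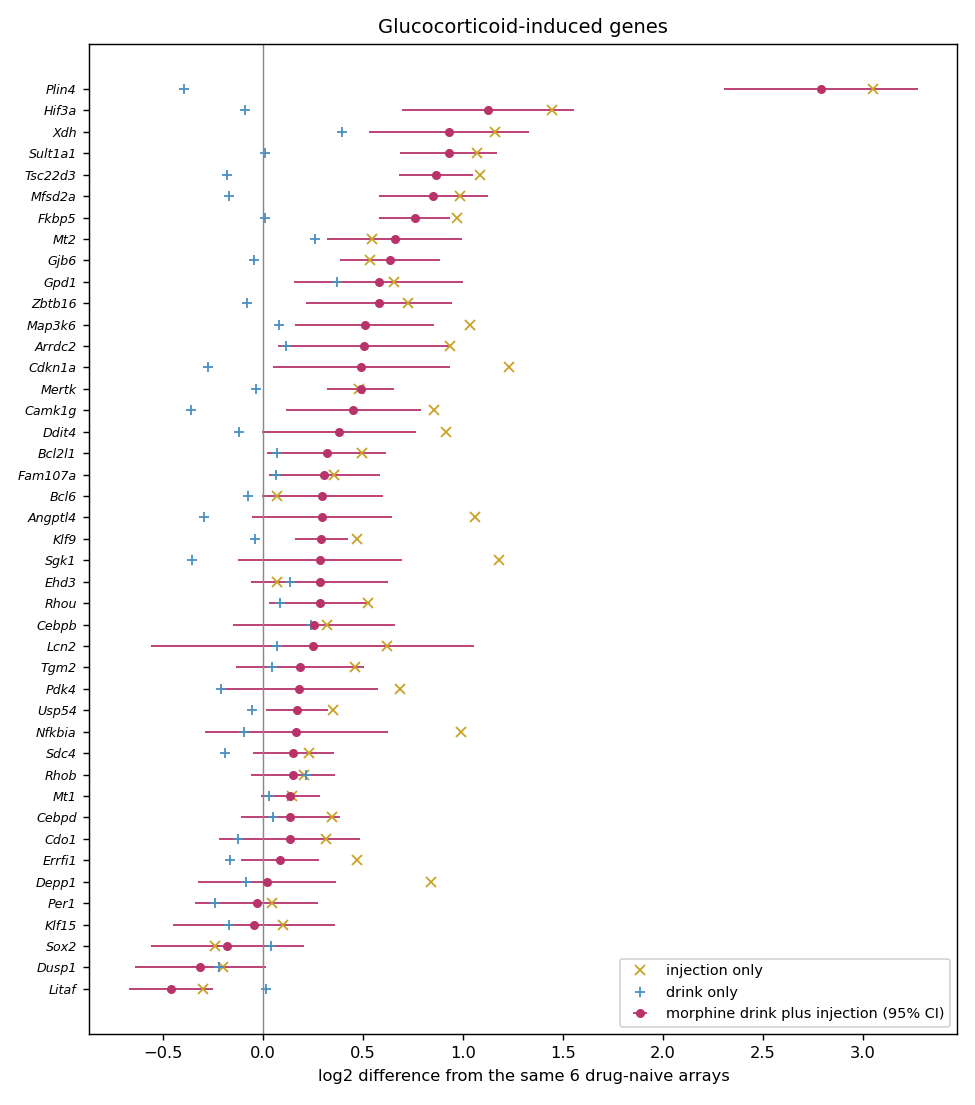
Log2 difference from the same 6 drug-naive arrays (horizontal axis) for the 43 glucocorticoid-induced genes tested (vertical axis). Filled points with 95% confidence intervals are the mice given both, crosses injection only and plus signs drink only. Most filled points lie right of 0, from -0.46 for Litaf to 2.79 for Plin4, and the crosses of Sgk1, Angptl4, Cdkn1a and Nfkbia lie far to the right of their filled points.

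The partners of the hormone receptor did not move as a list. Of 12 tested genes of corticosteroid receptors and partners, 1 rose, which was Fkbp5, and the median was 0.02, or 0.0064 without replicate 31. The receptor gene Nr3c1 itself was at 7.27 ± 0.280 and 7.19 ± 0.505 (SD, n = 6 each). Its level was close to the filter for dim probes at 7.09. Of 27 genes of lipid droplets and fatty acid use, 1 rose, Plin4, and 18 were above 0, with a median of 0.04, or 0.13 without replicate 31. Pdk4, which steers pyruvate away from oxidation, differed by 0.18. Among 19 hypoxia response genes the median was 0.04, or 0.085 without replicate 31. Their mean was higher on 6 of 6 chips, by 0.13 ± 0.075 (SD over 6 chips). Only 12 of the 19 were above 0. The largest difference was that of Hif3a, at 1.13, which is also on the glucocorticoid list. The mean of the hypoxia list ran from 9.80 to 10.04 on the drug-naive arrays and from 10.02 to 10.18 with both, so these overlapped. Slc2a1, the glucose transporter of the blood-brain barrier, ran from 11.94 through 12.15 to 12.48 and from 12.11 through 12.73 to 12.84. The ranges of Slc2a1 overlapped, and replicate 31 was its lowest array among mice given both (log2 difference 0.41, adjusted p = 0.831 by limma). Among 18 growth arrest genes with a median of 0.04, Sesn1, a sestrin that restrains mTORC1, differed by 0.28 with no overlap (adjusted p = 0.444 by limma), and Trp53inp1, a target of p53, by 0.32.

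No gene fell, and the nearest were 2 genes of growth factor signalling. Fgfr2, a fibroblast growth factor receptor of glia, ran from 12.50 through 12.78 to 12.90 in the drug-naive mice and from 11.93 through 12.39 to 12.45 in those given both. Every array with both lay below every drug-naive array, replicate 31 lowest, and the log2 difference was -0.44 (SE 0.0811, adjusted p = 0.0732 by limma). Its dimmer probes above the filter gave -0.16 and -0.51, and with the mean of its probes the adjusted p was 0.536 by limma. Gab1, an adaptor of receptor tyrosine kinases, ran from 11.81 through 11.89 to 12.28 and from 10.91 through 11.42 to 11.79, again without overlap. Its log2 difference was -0.50 (SE 0.0955, adjusted p = 0.0790 by limma). Of all genes, 14 lay lower in every array with both (0.102%) and 20 lay higher (0.146%). How many would separate in this way without any difference was not tested, so a lack of overlap is only a description. Among the 14 were Lypd6, a modulator of nicotinic receptors, and Plekho2, a pleckstrin homology domain gene. Lypd6 differed by -0.51 (adjusted p = 0.112 by limma, and -0.26 on its other probe) and Plekho2 by -0.58 (adjusted p = 0.165 by limma). Litaf, which encodes a protein of late endosomes, was at -0.46 on overlapping arrays. Hif3a, Gjb6, Fgfr2, Gab1, Xdh, Klf9, Litaf, Mt2, Zbtb16, Cdkn1a, Angptl4, Lypd6, Plekho2, Junb, Syne1, Glul, Ttc36 and Pisd-ps3 were singled out after their values were seen, as were Nfkbia, Depp1 and Dusp1.

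Immediate-early genes, which neurons switch on within minutes of activity, were mostly lower in the mice given both, though none passed. Of 26 tested, 19 were below 0, with a median of -0.22, and without replicate 31, 4 were above 0 with a median of -0.16. With all arrays, 8 were lower at an unadjusted p under 0.05, where 303 of all 13742 genes were. Egr2, a zinc finger transcription factor gene of this class, ran from 10.34 through 10.47 to 10.57 in the drug-naive mice and from 8.03 through 9.63 to 10.20 in those given both. The drug-naive arrays were tight, the others wide, with replicate 31 lowest. The log2 difference was -0.998 (SE 0.333, adjusted p = 0.831 by limma), and -0.83 without replicate 31.

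Fos, which encodes a subunit of the AP-1 transcription factor, ran from 10.46 through 11.26 to 11.44 and from 10.18 through 10.39 to 10.78. It was lower on 6 of 6 chips, with overlap through a single low drug-naive array, replicate 5 (log2 difference -0.70, SE 0.310, adjusted p = 0.995 by limma). Junb, an AP-1 partner, differed by -0.49 with no overlap, Egr4 by -0.51, and Arc, a synaptic plasticity gene, by -0.27. Against the same controls the list median was -0.21 with injection only and -0.22 with drink only. The drug-naive mean of the list ran from 9.89 to 10.19, and the arrays with both from 9.69 to 9.97, so these overlapped.

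**Figure D4:**
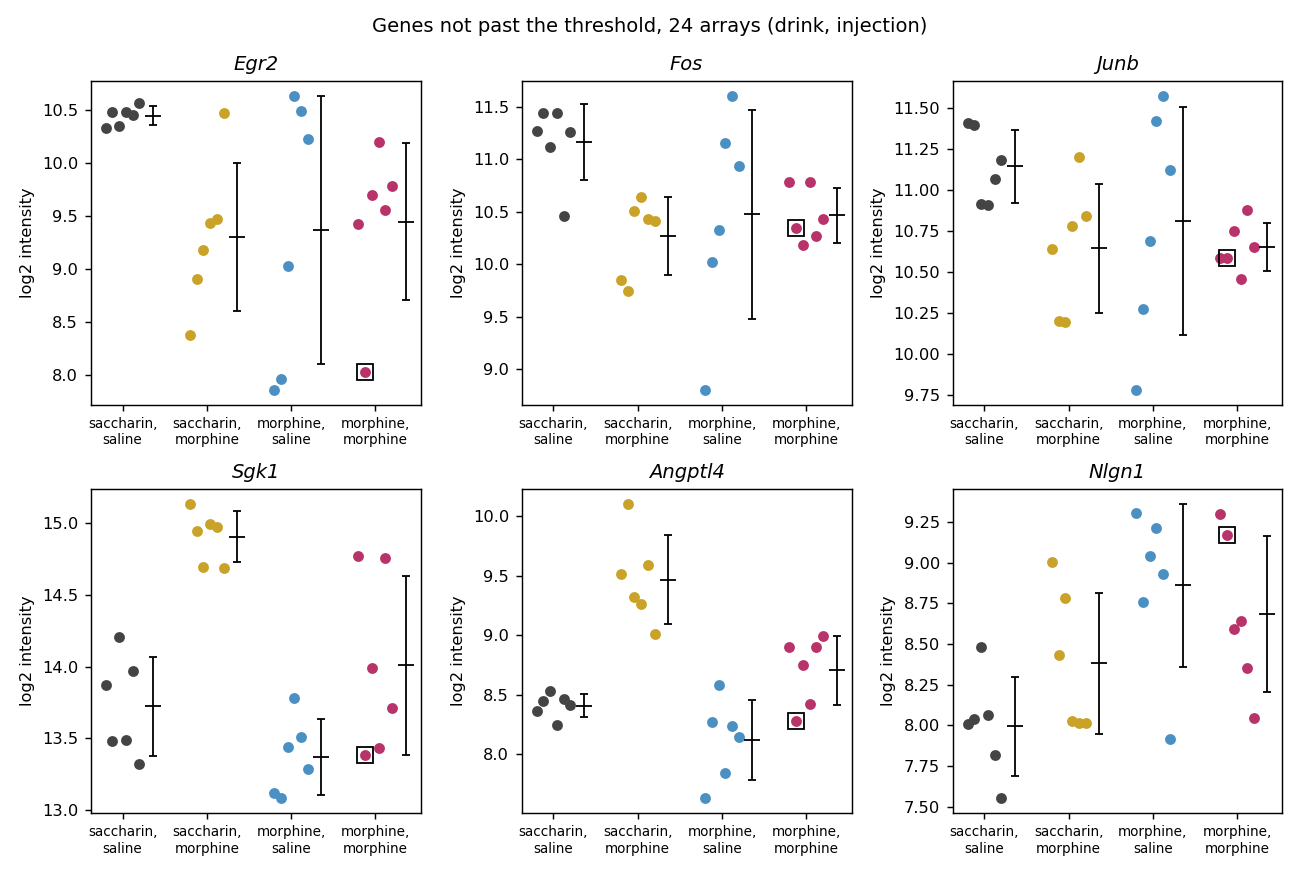
Normalized log2 intensity (vertical axis) of 6 genes that did not pass, with 1 point per array in each of the 4 groups, named by drink and injection and ordered within a group by chip. Bars with whiskers are mean and SD (n = 6), and an open square marks replicate 31. Egr2 is tightly grouped only in the saccharin, saline arrays, and Sgk1 and Angptl4 are high in the saccharin, morphine arrays, while their morphine, morphine arrays reach down into the saccharin, saline range.

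Opioid and dopamine genes gave no call. All 5 tested opioid peptide and receptor genes were below 0, with a median of -0.18, but without replicate 31, 2 of the 5 were above 0 and the median was -0.049. The enkephalin precursor Penk ran from 10.71 through 11.97 to 12.03 in the drug-naive mice and from 8.75 through 11.87 to 12.38 in those given both, where the 8.75 was replicate 31. Its log2 difference of -0.31 became 0.12 without that array. The dynorphin precursor Pdyn went likewise from -0.18 to 0.17. Pnoc, the nociceptin precursor, differed by -0.61 and by -0.63 without replicate 31 (adjusted p = 0.984 by limma with it). Oprm1, the mu receptor gene, had a mean of 6.42 on its single probe, below the filter of 7.09, and was not tested. Of 41 genes of opioid receptor signalling and cAMP, 28 were below 0, with a median of -0.06, and without replicate 31, 19 were above 0 with a median of -0.022. The cyclase gene Adcy9 was higher by 0.22 on 6 of 6 chips, and Crem, a cAMP-responsive repressor gene, by 0.32. Over 10 dopamine signalling genes the median was -0.24, or -0.07 without replicate 31. Drd5, a D1-class dopamine receptor gene, differed by 0.31 and Maob, a monoamine oxidase gene, by -0.17.

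The medium spiny neuron markers turned on replicate 31. With it, 26 of 27 tested were below 0 and the median was -0.37. Without it, 9 were above 0 and the median was -0.05. On that array 26 of the 27 were at their lowest among the 6 arrays with both. Rgs9, a regulator of G protein signalling rich in striatum, stood at 10.49 there, against 14.38 to 14.89 on the other 5. Neurod2, a neurogenic factor gene typical of cortical pyramidal cells, was at 13.12, against 9.73 to 11.28. The mean of 12 cortical markers was 10.81, against 9.86 to 10.72 on the other 5 and 9.27 to 10.92 on the drug-naive arrays, and their median log2 difference went from 0.06 to -0.018 without replicate 31. The myelin markers were low there too, at 11.72 against 12.02 to 12.32.

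Of the 6 genes that rose, Plin4, Sult1a1 and Mertk lay within the range of the other 5 arrays on replicate 31. Tsc22d3, Mfsd2a and Fkbp5 were highest there. The mean of the glucocorticoid list on replicate 31 was 10.82, within the 10.64 to 11.03 of the others. With drink-only replicate 32 also left out, 6 genes rose, 5 of them shared, with Syne1, a nuclear envelope linker gene, in place of Mertk. With all arrays, Syne1 differed by 0.44 on the probe used. Its other probes above the filter gave 0.36, 0.099, 0.015 and 0.083.

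**Figure D5:**
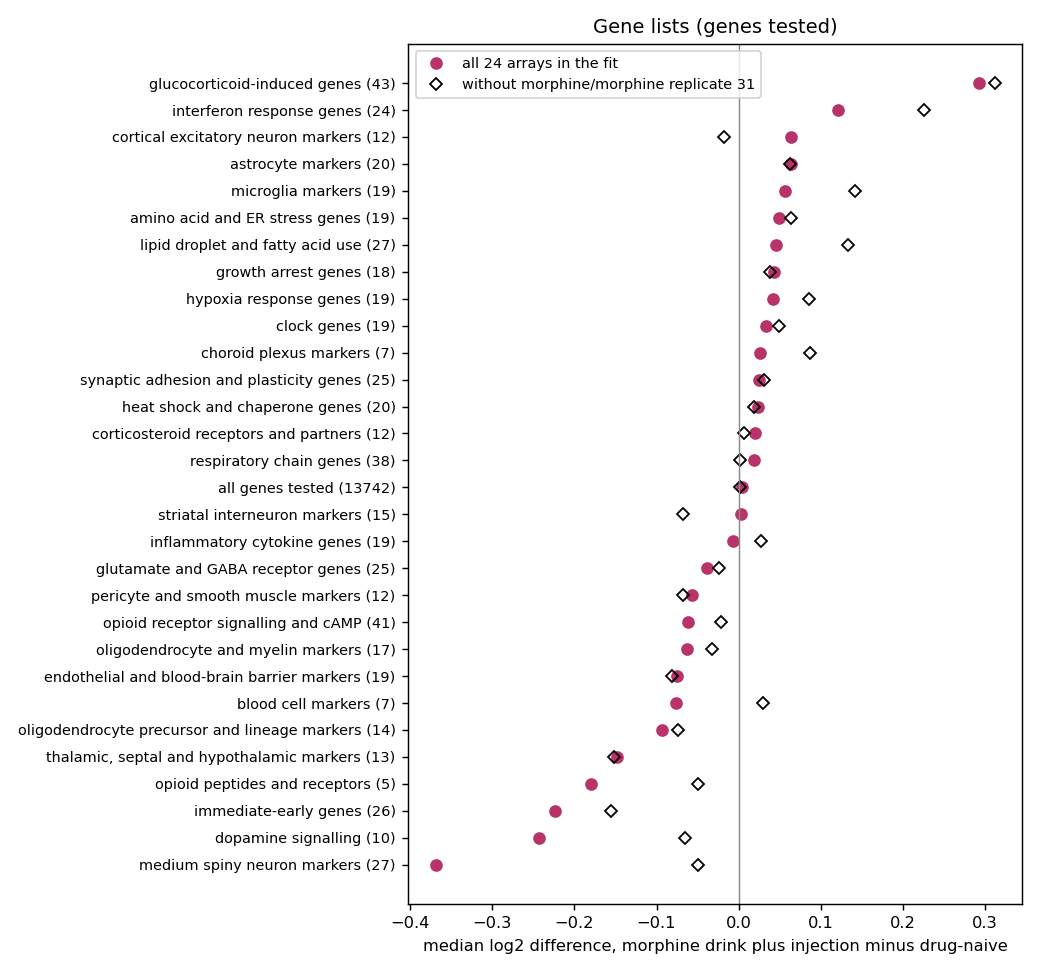
Median log2 difference between the mice given both and the drug-naive mice (horizontal axis) for each gene list and for all genes tested, with the number of genes tested in brackets. Filled points use all arrays and open diamonds leave out replicate 31. Glucocorticoid-induced genes lie farthest right in both, at 0.29 and 0.31, and medium spiny neuron markers move from -0.37 to -0.05.

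Among the markers of glia and vessels, Mertk and Mfsd2a rose, and the genes of the oligodendrocyte precursor and lineage list were lower as a mean on 6 of 6 chips. Of 20 astrocyte markers, 1 rose, Mertk (0 without replicate 31), and 12 were above 0, with a median of 0.06. Gfap, the astrocyte filament gene, differed by 0.37 and Glul, which makes glutamine, by 0.30. Of 17 myelin markers, 12 were below 0, with a median of -0.06, or -0.033 without replicate 31. Car2, the carbonic anhydrase of oligodendrocytes, ran from 11.66 through 11.92 to 12.04 and from 11.30 through 11.46 to 11.54, with no overlap (log2 difference -0.44, SE 0.123, adjusted p = 0.560 by limma). Opalin, a myelin membrane protein gene, differed by -0.62 on overlapping arrays (adjusted p = 0.430 by limma).

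Of 14 oligodendrocyte precursor and lineage genes, 11 were below 0. Their median was -0.09. None passed by limma, with 3 lower at an unadjusted p under 0.05, where 303 of all 13742 genes were. The within-chip difference of their mean was -0.13 ± 0.066 (SD over 6 chips), a size near that of the rise in the hypoxia response list. The mean ran from 10.37 to 10.62 on the drug-naive arrays and from 10.33 to 10.46 with both, so these overlapped. Sox10, the lineage's defining transcription factor gene, differed by -0.30, and Sox21, another Sox factor gene, by -0.49. Against the same controls, injection only gave a list median of -0.13 with 3 genes that fell. Sox10 was then at -0.54 and Sox21 at -0.80, so these lower values were not particular to the mice given both. Of 19 microglia markers the median was 0.06, or 0.14 without replicate 31, while Cx3cr1, the fractalkine receptor gene, ran from 10.67 through 11.06 to 11.40 and from 10.36 through 10.58 to 11.15. Its ranges overlapped through replicate 34 (log2 difference -0.46, adjusted p = 0.560 by limma), and Gpr34, another microglial receptor gene, differed by -0.28. Of 19 endothelial genes, 1 rose, Mfsd2a, and 12 were below 0.

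Synaptic and immune lists held no further calls. Of 25 synaptic adhesion and plasticity genes, the one of smallest p was Nlgn1, a postsynaptic adhesion protein gene. It ran from 7.55 through 8.02 to 8.48 in the drug-naive mice and from 8.04 through 8.62 to 9.30 in those given both. The ranges overlapped, but it was higher on 6 of 6 chips (log2 difference 0.69, SE 0.158, adjusted p = 0.221 by limma). With drink only its mean was 8.86 and with injection only 8.38, against 7.99 in the shared controls. Camk1g, a calcium-dependent kinase gene, differed by 0.45 and was also higher on 6 of 6 chips. Bdnf, a neurotrophin gene, differed by 0.41 with a 95% interval from -0.54 to 1.35.

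Among 25 glutamate and GABA receptor genes with a median of -0.04, or -0.024 without replicate 31, Gria1, an AMPA receptor subunit gene, differed by 0.23 and Gabrb2, a GABA-A subunit gene, by -0.38. Of 24 interferon response genes, 19 were above 0, with a median of 0.12, or 0.23 without replicate 31. Ifi27 (0.34) and the RNA sensor gene Ddx58 (0.32) had the smallest p-values of the list. Of 19 cytokine genes the median was -0.01, or 0.027 without replicate 31. The chemokine gene Cxcl12 differed by -0.49 on 6 of 6 chips (adjusted p = 0.746 by limma), and the NF-kappa-B subunit gene Rela by -0.13. Of 19 clock genes the median was 0.03, with Per3 at 0.41 and Nr1d1 at 0.17. None of the 38 respiratory chain genes, 20 heat shock genes or 19 amino acid and ER stress genes passed by limma, with 0, 0 and 2 at an unadjusted p under 0.05, and their medians were 0.02, 0.02 and 0.05. Without replicate 31 the median of the respiratory chain genes was 0.0014.

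Some differences of large size did not pass. Pisd-ps3, a pseudogene with close copies, had the second largest difference, 2.48 (SE 0.838, adjusted p = 0.831 by limma). Its drug-naive arrays were split, with 2 at 7.62 and 8.22 and 4 between 12.82 and 14.58, while the arrays with both ran from 13.70 to 14.70. Its other probe gave 0.12. Ttc36, which encodes a tetratricopeptide repeat protein, ran from 6.29 through 6.54 to 7.03 and from 6.82 through 7.79 to 8.59. It overlapped slightly, was higher on 6 of 6 chips and lay near the filter (log2 difference 1.19, SE 0.244, adjusted p = 0.137 by limma).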

How the data were processed

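Total RNA of striatum was labelled as biotinylated cRNA and hybridised to Illumina beadchips, per the labels' protocols. The authors deposited probe intensity on a linear scale, not normalized between arrays, and any background subtraction before deposit is not stated in the labels. They also deposited a table of log2 values, which ranked the probes of each array as the intensities did (lowest rank correlation 1) and lay within 0.110 of quantile-normalized log2 intensities. It served as an alternative.

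Background correction by normexp (offset 50), quantile normalization and conversion to log2 used limma 3.58.1 (R 4.3.3). Of 45281 probes, 34885 had 1 gene symbol in the platform annotation, 18 several and 10378 none listed. Probes with 1 symbol were kept where their mean exceeded 7.09, the 40th percentile over the chip, and the brightest stood for its gene, 5655 genes having several. This left 13742 genes. Detection p-values were not used here. The number of arrays limits the precision, with a median standard error of 0.142 per log2 difference.

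Models (lmFit, eBayes) held group and chip as fixed terms and used the 24 arrays together. P-values are two-sided, adjusted by Benjamini-Hochberg over all genes, with a threshold of 0.05. The script was tested on simulated data. The samples, gene lists (29, with 572 of 669 entries tested) and tests were chosen with earlier results of these data known. Named genes are those past the threshold that kept 1 direction on 5 or more of 6 chips, passing members of each list (at most 4) or else its 2 of smallest p for the lists described, and 18 landmark genes. Others are said to have been chosen after their values were seen. Lists are described by counts and medians, and a list mean is the mean log2 intensity of its tested members on 1 array. Alternatives covered background, scaling, the authors' values, filters, probe choice, the chip term, array weights, the prior, the 12 arrays alone, and each array or chip left out. Plots used Python 3.11.15 and matplotlib 3.10.9.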

Additional observations from a re-analysis of the deposited data

Results flagged for a closer look

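Within each group of 6 arrays, the highest or lowest array was compared with its nearest neighbour by Dixon's ratio, the gap divided by the whole range, for 67 named genes and 29 list means. Of 192 such groups, 31 (16.1%) passed the 95% critical value, and chance gives about 1 in 20. The genes of a list are not independent, and 17 of the 31 were replicate 31 of the mice given both.

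On replicate 31 the ratio was 0.8142 for Drd1, 0.7719 for Drd2, 0.7437 for Ppp1r1b, the striatal phosphatase inhibitor gene, 0.7755 for Penk, 0.743 for Pdyn, 0.8851 for Rgs9 and 0.6622 for Slc35d3, all medium spiny neuron genes that were lowest there. Egr2 (0.6458) and Trp53inp1 (0.6556) were also lowest there, and Adcy9 (0.6418) and Gria1 (0.69) highest. Of the list means, those of medium spiny neurons (0.8134), dopamine signalling (0.8648), opioid peptides and receptors (0.6722), opioid receptor signalling and cAMP (0.726) and striatal interneurons (0.7012) were lowest there, and that of corticosteroid receptors and partners (0.783) was highest. Elsewhere in the group, Cx3cr1 stood high on replicate 34 (0.6913) and Klf9 high on replicate 39 (0.7195).

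In the drug-naive group, replicate 8 stood apart in Penk (0.7642), Pdyn (0.6408), Ddx58 (0.7643), Gab1 (0.7182) and the means of opioid peptides and receptors (0.7258), respiratory chain (0.6716), astrocyte (0.8184) and microglia genes (0.838). Replicate 10 stood apart in Adcy9 (0.7862) and the means of hypoxia response genes (0.804) and pericyte markers (0.6582), and replicate 5 in Fos (0.6696).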

How the results depend on the processing

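The animal numbers of the groups do not coincide, so no number pairs animals, and chip, which held 1 array of each group, was the block in the fit. Over 35 alternatives, 18 of which left out 1 array or chip, Plin4 passed in 35, Sult1a1 in 33, Tsc22d3 and Fkbp5 in 32 each, Mfsd2a in 25 and Mertk in 15, always with the same sign, and the cause of each lost call was not tested. The number of rises was 3 with scaling to a common median (Plin4, Mfsd2a and Sult1a1), 1 with only the 12 arrays, with or without replicate 31 (Plin4), 19 with array weights, 10 with a trended robust prior, and 4 to 7 with an array or chip left out. It was 8 with no background step, with the authors' values and with a filter at the 60th percentile, each adding Hif3a and Gjb6. On the authors' values their adjusted p was 0.0185 and 0.0482 by limma. Hif3a and Gjb6 each passed in 7 of the 35 alternatives. Fitting 12 arrays leaves fewer from which to estimate the spread. The number of falls was 0 in 27 alternatives. It was 1 with no background step and with the authors' values (Fgfr2), 1 with no filter on dim probes (Olfr357), 2 with a filter at the 60th percentile (Fgfr2 and Gab1), 4 with array weights (Fgfr2, Wnt7a, Lypd6 and Gab1), 4 with the trended prior (Fgfr2, Gab1, Lypd6 and Litaf), and 0 to 1 with an array or chip left out (Olfr1450, without replicate 34 or chip 3). The comparison of injected mice by drink gave 0 to 1 in those fits (again Olfr1450, an olfactory receptor gene). Olfr357, Olfr1450 and Wnt7a were named after their values were seen.

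Of 67 named genes, 9 changed sign under some alternative, none of them called. Per1 was 0.0043 with median scaling, and Sesn1 was -0.087 with the probe of largest spread. With the 12 arrays less replicate 31, the log2 difference was 0.29 for Penk, 0.022 for Per1, 0.072 for Nr3c1, 0.26 for Pdyn, 0.073 for Drd1, 0.15 for Drd2 and 0.14 for Ppp1r1b. With array weights it was 0.11 for Penk, 0.012 for Nr3c1, 0.14 for Pdyn and 0.0043 for Ppp1r1b. Without replicates 31 and 32 it was 0.31 for Penk, 0.024 for Per1, 0.018 for Nr3c1, 0.30 for Pdyn, 0.098 for Drd1, 0.15 for Drd2 and 0.17 for Ppp1r1b. With single arrays or chips left out, Penk ran from -0.54 to 0.29, Slc17a7 from -0.052 to 0.94, Per1 from -0.11 to 0.091, Nr3c1 from -0.25 to 0.072, Pdyn from -0.33 to 0.26, Drd1 from -0.82 to 0.073, Drd2 from -0.94 to 0.15 and Ppp1r1b from -0.62 to 0.14. Medians of the lists kept their sign under the scalings tried, except striatal interneuron, blood and choroid plexus markers, and the median of all genes was at most 0.018.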
